A study of Mus musculus with 5 samples.

Results

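The genes described here are Csf1r, Cx3cr1, P2ry12, Tmem119, Aif1, Trem2, Tyrobp, C1qa and Mrc1, 9 genes used as markers of microglia and macrophages, taken by symbol from a table of 17739 genes. All 9 were found, and each had a mean of at least 5 on the table's log2 scale, a level reached by 13691 genes. RNA was measured in tumour cells from the cerebella of Math1-Cre;Gli2A mice, offspring of Math1-Cre and R26;Gli2A parents, fed a DOX (doxycycline) diet from conception (embryonic day 0), with GLI2 active per the labels. The Math1 promoter drives Cre in progenitors of granule neurons. GLI2 carries the Sonic hedgehog signal to the genome, and tumours driven by this pathway are a form of medulloblastoma. Cells were taken once tumours had developed, digested with papain to single cells and lysed at once, and 1.3 µg of total RNA entered each strand-specific mRNA library. The labels put all 5 libraries in 1 group and give neither the age nor the sex of the mice. The titles number the tumours 1, 5, 8, 14 and 15, and these numbers name the libraries here. No label states that each number is a separate animal, so the SD measures the spread between these samples, which may in part be technical. The p-values test differences between genes within these samples and have the same limit.

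Microglia are the resident macrophages of the brain. They arise outside the neural lineage and depend on signalling through the receptor CSF1R for their survival, while perivascular and meningeal macrophages line the borders of the brain. Granule neuron progenitors belong to the neural lineage and are not known for these genes. In a bulk sample fewer cells of a type and less RNA per cell cannot be told apart. The 9 genes have different roles: Csf1r, Cx3cr1 and P2ry12 encode receptors for cytokine, chemokine and nucleotide signals. Trem2 and its adaptor Tyrobp sense lipids and debris, C1qa encodes a chain of the complement protein C1q, and Mrc1 the mannose receptor of border macrophages. Aif1 encodes the actin-binding protein IBA1, and Tmem119 a membrane protein of microglia that is also known from bone-forming cells.

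Promoters are shown for a microglial receptor, for the member that varied most between tumours and for the macrophage receptor gene whose order over tumours differed. Of the 9 genes, 5 had an entry in the RefSeq promoter table on GRCm38.p6, which runs from 250 bases before to 50 bases after a transcription start: Cx3cr1, P2ry12, Aif1, Trem2 and Mrc1. Each promoter is written 5′ to 3′ on the strand of its gene, and capitals mark matches, on either strand, to GAGGAA, the purine-rich box bound by PU.1, a transcription factor of myeloid cells.
P2ry12 (chr3:59262936-59263235, minus strand): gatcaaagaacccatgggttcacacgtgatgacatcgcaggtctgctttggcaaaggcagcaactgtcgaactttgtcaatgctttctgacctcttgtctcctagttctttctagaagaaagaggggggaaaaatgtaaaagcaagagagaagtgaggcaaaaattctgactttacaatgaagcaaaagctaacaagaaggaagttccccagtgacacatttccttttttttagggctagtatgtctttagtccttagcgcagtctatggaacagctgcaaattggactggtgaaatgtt
Trem2 (chr17:48346151-48346450, plus strand): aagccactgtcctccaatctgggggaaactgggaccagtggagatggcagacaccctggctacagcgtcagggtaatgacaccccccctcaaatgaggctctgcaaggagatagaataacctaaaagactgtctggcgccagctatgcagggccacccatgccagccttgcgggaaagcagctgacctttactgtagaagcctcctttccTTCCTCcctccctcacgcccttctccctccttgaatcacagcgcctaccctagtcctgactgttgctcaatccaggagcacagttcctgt
Mrc1 (chr2:14229164-14229463, plus strand): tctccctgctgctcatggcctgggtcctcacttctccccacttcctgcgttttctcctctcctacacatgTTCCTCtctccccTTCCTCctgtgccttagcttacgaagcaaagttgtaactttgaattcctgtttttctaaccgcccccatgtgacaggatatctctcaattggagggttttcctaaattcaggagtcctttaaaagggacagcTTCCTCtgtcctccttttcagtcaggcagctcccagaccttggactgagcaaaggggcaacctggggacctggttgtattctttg
The Trem2 window held 1 match and the Mrc1 window 3. Aif1 also had 1 match, and the windows of P2ry12 and Cx3cr1 had 0. Thus 3 of 5 matched members held the box, beside 28.3% of all 32851 promoters of 300 bases. These matches describe the letters of the windows and do not show binding.

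Csf1r, the receptor for the cytokines CSF1 and IL-34 (GRCm38 chromosome 18, 61100598 to 61132149, plus strand, protein coding), had deposited log2 levels of 11.14 in tumour 1, 11.78 in tumour 5, 11.20 in tumour 8, 11.14 in tumour 14 and 10.94 in tumour 15. Tumour 5 was highest and tumour 15 lowest, and the other 3 tumours lay within 0.06 of each other. The mean was 11.24 ± 0.32 (SD, n = 5), the highest of the 9 genes on this scale. Opposite-strand exons of Hmgxb3 overlap 15.1% of the exon bases of Csf1r, and whether counting used strand is not stated in the labels, so reads of these genes may not be told apart.

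The other receptors followed a similar order. Cx3cr1, the receptor for fractalkine (chromosome 9, 119901616 to 120069879, minus strand), had log2 levels of 10.02, 10.53, 9.91, 9.85 and 9.75 in tumours 1, 5, 8, 14 and 15. P2ry12, a receptor for ADP that guides microglial processes to sites of injury (chromosome 3, 59216272 to 59262871, minus strand), had log2 levels of 8.89, 9.51, 8.75, 9.0 and 8.63 in the same tumours. Both were highest in tumour 5 and lowest in tumour 15, while the order of tumours 1, 8 and 14 differed between them. The highest and lowest tumours were 1.72-fold apart for Cx3cr1, 1.84-fold for P2ry12 and 1.79-fold for Csf1r.

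Trem2 and Tyrobp, a receptor and the adaptor through which it signals, had the same highest and lowest tumour. Trem2 (chromosome 17, 48346401 to 48354147, plus strand) had log2 levels of 8.57, 9.27, 8.68, 8.65 and 8.17 in tumours 1, 5, 8, 14 and 15. Tyrobp (chromosome 7, 30413760 to 30417585, plus strand) had 8.68, 9.37, 8.80, 8.73 and 8.50. Trem2 was the widest of the 9 genes, with 2.15-fold between tumours 5 and 15, and it was the only one whose range exceeded 2-fold, in 1 of 9 members beside 3.79% of all genes with a mean of at least 5. Without tumour 5 or without tumour 15, 0 of 9 members exceeded 2-fold. Tyrobp spanned 1.83-fold.

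C1qa (chromosome 4, 136895917 to 136898803, minus strand) had log2 levels of 10.14 in tumour 1, 10.71 in tumour 5, 10.20 in tumour 8, 10.06 in tumour 14 and 9.93 in tumour 15. Its neighbours C1qb and C1qc, which encode the other chains of C1q, averaged log2 levels of 10.63 ± 0.33 and 10.60 ± 0.35 (SD, n = 5) and were also highest in tumour 5 and lowest in tumour 15. Aif1 (chromosome 17, 35170991 to 35176068, minus strand) was the lowest member on this scale, with 6.20, 6.61, 6.20, 6.27 and 6.06 in tumours 1, 5, 8, 14 and 15. Its highest and lowest tumours, 5 and 15, were 1.47-fold apart. Values of weakly expressed genes are pulled together by the transformation read here, so folds of low genes are understated.

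Mrc1 and Tmem119 departed from this order in different ways. Mrc1 (chromosome 2, 14229392 to 14332057, plus strand) had log2 levels of 8.49, 8.87, 8.42, 7.93 and 8.15 in tumours 1, 5, 8, 14 and 15, so that tumour 14, not tumour 15, was lowest. Tmem119 (chromosome 5, 113793729 to 113800516, minus strand) had 7.60, 7.75, 7.61, 7.49 and 7.79, with tumour 15 highest by 0.04 over tumour 5 and tumour 14 lowest. Tmem119 was the narrowest member, with 1.23-fold between its extremes.

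**Figure D1:**
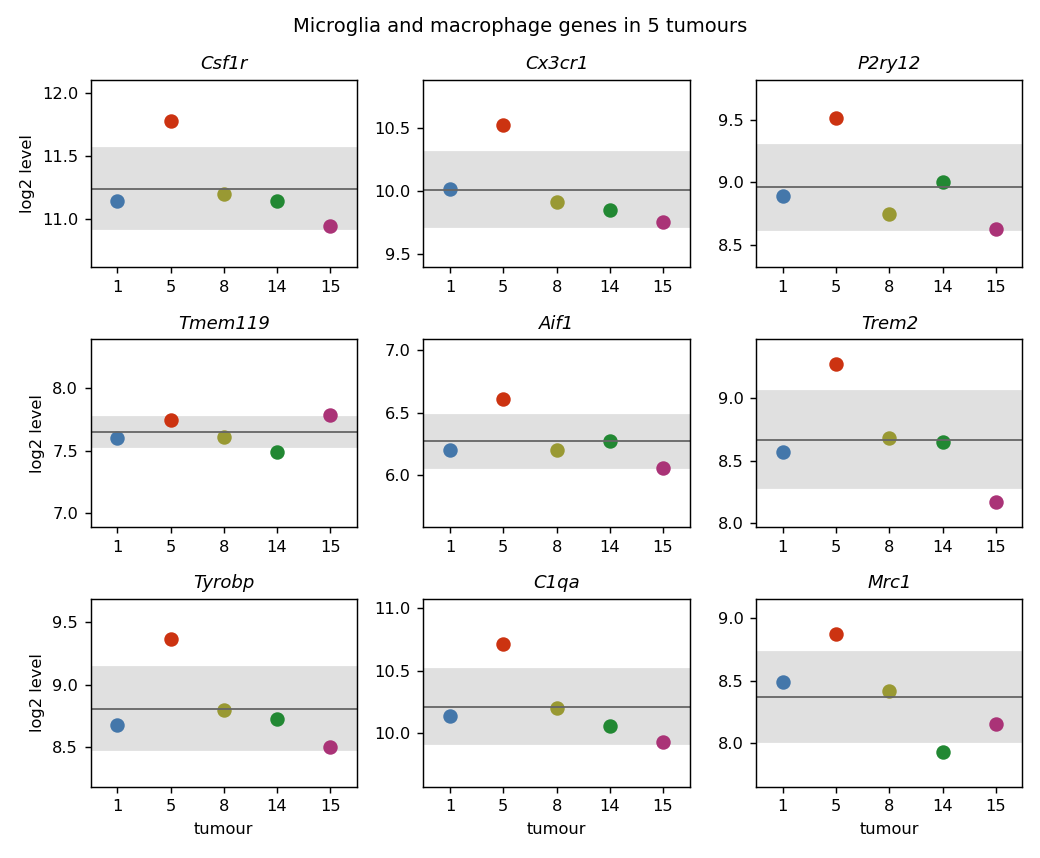
Deposited log2 level (y axis, 1.5 log2 units in every panel) of each of the 9 genes in tumours 1, 5, 8, 14 and 15 (x axis), 1 point a library; the line is the mean and the grey band the SD over 5 tumours. Tumour 5 is the highest point in 8 panels and tumour 15 the lowest in 7, the exceptions being Tmem119 and, for the lowest point, Mrc1.

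Counted over the members, 8 of 9 were highest in tumour 5, beside 24.1% of all genes with a mean of at least 5. Tmem119 was highest in tumour 15, where 21.4% of all genes were highest. Of the 9 genes, 7 were lowest in tumour 15, beside 22.9% of all genes, and Tmem119 and Mrc1 were lowest in tumour 14, beside 13% of all genes. Both extremes together, highest in tumour 5 and lowest in tumour 15, held for 7 of 9 members and 8.07% of all genes. The 9 genes mark related cells, and their counts are not independent of each other. The pattern was known when the genes were chosen, and no test was made of it.

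The size of the shift was shared by most members. Relative to each gene's own mean over the 5 tumours, the median member stood at 0.52 in tumour 5, -0.04 in tumour 8, -0.07 in tumour 1, -0.10 in tumour 14 and -0.28 in tumour 15, on the log2 scale. The median over all genes with a mean of at least 5 lay between -0.01 and 0.00 in every tumour. All 9 members were above their own mean in tumour 5, from 0.10 for Tmem119 to 0.60 for Trem2, and 48.3% of all genes were. The median SD between tumours was 0.32 for the members and 0.11 for all genes. Without tumour 5 these values were 0.12 and 0.10, so that most of the typical member's spread came with that library. Mrc1 (SD 0.36 with and 0.26 without tumour 5), Trem2 (0.39 and 0.24) and Tmem119 (0.12 and 0.12) kept more than 0.5 of theirs. In the other members the SD without tumour 5 was 0.09 to 0.16. Tumour 5 was lowest for 0 of 9 members, so leaving it out cannot change the lowest tumour, which was tumour 15 for 7. Without tumour 5 the highest tumour was tumour 8 for 4 members, tumours 1 and 14 for 2 each and tumour 15 for 1.

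**Figure D2:**
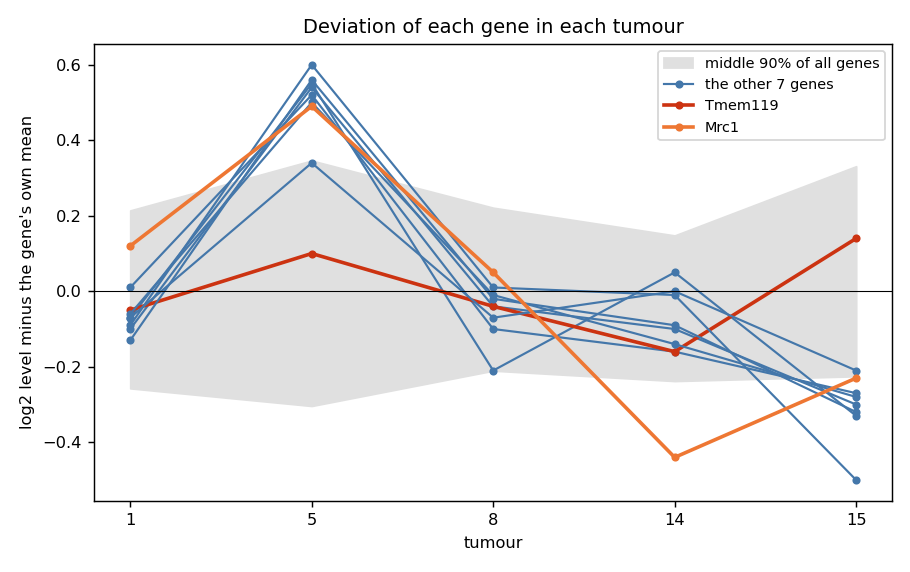
Log2 level minus the gene's own mean (y axis) in each tumour (x axis; the lines join 1 gene and imply no order of tumours), with the middle 90% of all genes with a mean of at least 5 in grey. In tumour 5, 7 of the members lie between 0.49 and 0.60, with Aif1 at 0.34 and Tmem119 at 0.10, against an upper edge of the grey band at 0.35.

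How closely the members kept step was measured by subtracting, in each tumour, the median deviation of the other 8 members. A correlation over 5 tumours was not computed. The SD of a typical member fell by this to 0.12, against 0.32 before, and it was smaller for 8 of 9 members. Without tumour 5 the fall was smaller, from 0.12 to 0.08, so the members' likeness rests largely on that library. Csf1r and C1qa kept 8.90% and 9.88% of their SD, Tyrobp 15.5%, Cx3cr1 21.1%, Trem2 35.0% and P2ry12 37.7%. Aif1 and Mrc1 kept 57.4% and 57.5%. For Mrc1 the remainder was -0.35 in tumour 14 and 0.19 in tumour 1. Tmem119 was the exception, with an SD of 0.12 before and 0.31 after the subtraction, since its remainder was -0.43 in tumour 5 and 0.43 in tumour 15.

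To set levels of different genes side by side, log2 exon length in kilobases was subtracted, with all annotated exons of a gene joined. On this length-subtracted scale the order was C1qa (10.15 ± 0.30, SD, n = 5), Tyrobp (9.40 ± 0.33), Csf1r (8.71 ± 0.32), Cx3cr1 (7.84 ± 0.30), P2ry12 (7.61 ± 0.34), Tmem119 (6.44 ± 0.12), Trem2 (6.36 ± 0.39), Mrc1 (5.70 ± 0.36) and Aif1 (5.66 ± 0.21). The median of all genes with a mean of at least 5 was 7.17 on the same scale. C1qa stood at percentile 94.9 of these genes and Tyrobp at 89.2, whereas Mrc1 and Aif1 stood at 24.4 and 23.7. The place of Trem2 rests on its annotated length. Its joined exons span 4946 bases and its APPRIS principal transcript 1088 bases, and with the principal transcript Trem2 averaged 8.55, between Csf1r (9.0) and Cx3cr1 (7.84).

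**Figure D3:**
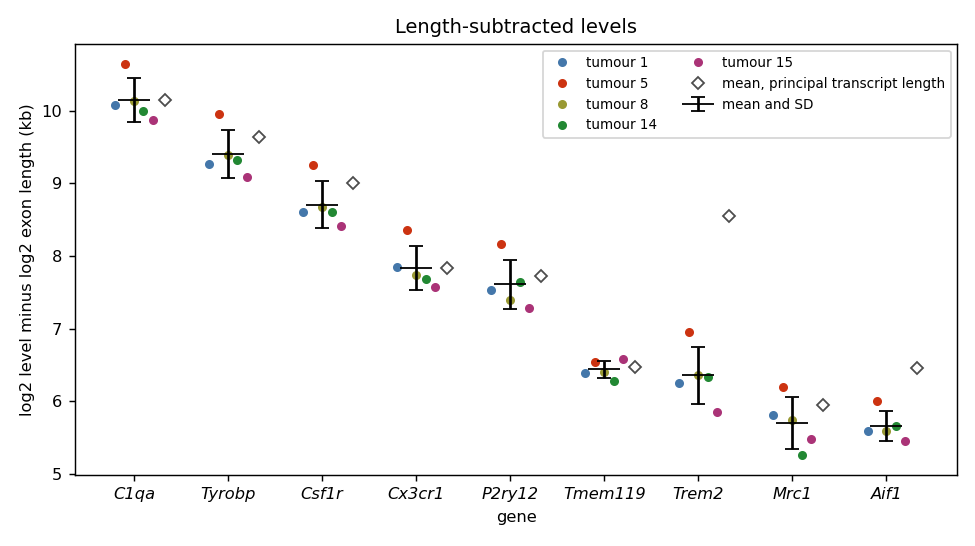
Log2 level minus log2 exon length in kilobases (y axis) for the 9 genes (x axis), 1 coloured point a tumour, with bars for the mean and SD of 5 tumours; open diamonds give the mean with the length of the principal transcript. C1qa and Tyrobp are highest at 10.15 and 9.40, and the diamond of Trem2 lies at 8.55 against its mean of 6.36.

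Neighbours in that order were compared within each tumour. The order came from the means of the same 5 tumours, so with joined exons each mean difference is above 0 by construction. The p-values are therefore no independent test of the order. For 6 of the 8 neighbouring pairs the difference had the same sign in 5 of 5 tumours, which gives 0.0625, the smallest p of an exact sign-flip permutation (two-sided) with 5 tumours (adjusted 0.0833 over 8 pairs by Benjamini-Hochberg), so no pair could pass 0.05. These differences ran from 0.23 ± 0.13 for Cx3cr1 minus P2ry12 to 1.17 ± 0.35 for P2ry12 minus Tmem119. With the longest or the principal transcript Cx3cr1 minus P2ry12 was 0.12 and no longer had the same sign in every tumour (exact permutation p = 0.188). C1qa exceeded Tyrobp by 0.75 ± 0.06 and Tyrobp exceeded Csf1r by 0.69 ± 0.02. Tmem119 minus Trem2 was 0.08 ± 0.42 (exact permutation p = 0.688, adjusted 0.688) and above 0 in 3 of 5 tumours, and -2.06 with principal transcripts. Mrc1 minus Aif1 was 0.05 ± 0.26 (exact permutation p = 0.688, adjusted 0.688) and above 0 in 4 of 5 tumours, and -0.52 with principal transcripts. With joined exons the differences of these 2 pairs lay within their SD, while with principal transcripts both had the same sign in 5 of 5 tumours (exact permutation p = 0.0625 each), so their order rests on the lengths used.

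Members were then set beside partner or related genes, in 10 pairs on the length-subtracted scale. The pair of CSF1R ligands, Csf1 and Il34, holds no member. In all 10 pairs the sign was the same in 5 of 5 tumours, at p = 0.0625, the smallest of the same exact permutation test (adjusted 0.0625 for 10 pairs). Tyrobp exceeded Hcst, the neighbouring gene of the related adaptor DAP10, by 6.64 ± 0.32. Trem2 minus Tyrobp was -3.04 ± 0.10 with joined exons and -1.10 with principal transcripts. It lay between -3.01 and -2.96 in 4 tumours and at -3.22 in tumour 15. P2ry12 exceeded P2ry13, a neighbouring purine receptor gene, by 1.39 ± 0.04, with 1.34 to 1.46 in the single tumours.

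C1qa minus C1qb was -0.36 ± 0.04. C1qa minus C1qc was 0.50 ± 0.07, and -0.18 with principal transcripts, so the order of these 2 chains depends on the length used. Cx3cr1 exceeded Ccr2, the chemokine receptor of monocytes, by 7.44 ± 0.40, and Mrc1 exceeded the macrophage scavenger receptor gene Cd163 by 3.14 ± 0.27. Aif1 minus Lcp1, another actin-binding gene of blood cells, was -0.37 ± 0.25. Of the ligands of CSF1R, Csf1 averaged 7.06 ± 0.15 and Il34 5.53 ± 0.21 on this scale, a difference of 1.53 ± 0.17.

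Ligands of the receptors were also measured. In the list of CSF1R ligands and signalling genes (median log2 level 7.97 ± 0.28), 8 of 9 genes with a mean of at least 5 were highest in tumour 5. Csf1 had deposited log2 levels of 9.39, 9.61, 9.58, 9.24 and 9.48 in tumours 1, 5, 8, 14 and 15, a range of 0.36. Il34, which neurons make in the brain, had 6.47, 6.82, 6.54, 6.41 and 6.26. Cx3cl1, the ligand of CX3CR1, had 8.27, 8.39, 8.54, 8.23 and 8.50. Il34 thus had the extremes of Csf1r, tumours 5 and 15, whereas Csf1 was lowest in tumour 14 and Cx3cl1 was highest in tumour 8 and lowest in tumour 14. In the chemokine and purine list, to which Cx3cl1 belongs (median 7.64 ± 0.25), 5 of 8 genes with a mean of at least 5 were highest in tumour 5.

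Of the other genes of resting microglia, 8 of 12 were highest in tumour 5 and 8 of 12 lowest in tumour 15. The list had a median log2 level of 7.91 ± 0.31 (SD over 5 tumours), against 9.40 for all genes with a mean of at least 5. These levels keep transcript length. On the length-subtracted scale the medians lay closer, at 6.74 ± 0.30 for the list and 7.17 for all these genes. Siglech, a microglial lectin gene, had 6.67, 7.43, 6.69, 6.48 and 6.44 in tumours 1, 5, 8, 14 and 15, and Gpr34, a lysophospholipid receptor gene, had 7.59, 8.39, 7.51, 7.68 and 7.49. The 4 that were not highest in tumour 5 were Sall1, whose 5 values lay within 0.23 of each other, highest in tumour 15, Olfml3 (10.03 in tumour 5 and 10.44 in tumour 15), Slc2a5 (5.03 and 5.53) and Adgrg1 (13.52 and 13.40, highest in tumour 14 at 13.66). Sall1, Olfml3 and Slc2a5, 3 of the 12, thus had their maximum in tumour 15, beside 21.4% of all genes with a mean of at least 5. Tmem119 also had its maximum there, by only 0.04 over tumour 5. In the same libraries 5 of 9 pericyte and fibroblast genes (median 10.34 ± 0.37) were highest in tumour 15, beside the same 21.4%. The summed level of that list ran between 14.14 in tumour 5 and 14.99 in tumour 15 (log2 of the summed linear values). Its part in the level of Tmem119 was not tested.

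The border and tissue macrophage list, the closest in kind to Mrc1, was low, with a median log2 level of 5.01 ± 0.14, and 7 of its 12 genes had a mean of at least 5. Of these 7, 6 were highest in tumour 5, 3 were lowest in tumour 14 and 4 in tumour 15. F13a1, a macrophage gene for a coagulation factor subunit, had log2 levels of 6.06, 6.59, 6.01, 5.59 and 5.71 in tumours 1, 5, 8, 14 and 15, the same order at both ends as Mrc1. Stab1, a scavenger receptor gene also used by vessel lining cells, was the highest of the list at 10.17 ± 0.33, with its minimum in tumour 15. Cbr2 (8.46 ± 0.44) was highest in tumour 8 instead, and Ccl24 was lowest of the list at 3.06 ± 0.13.

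Genes of the TREM2 and TYROBP signalling chain (median log2 level 7.03 ± 0.23) were in part in step with the members. Of 7 listed genes with a mean of at least 5, 5 were highest in tumour 5. Inpp5d, a phosphatase gene that restrains this signalling, stood at 9.07 in tumour 5 and 8.27 in tumour 15. Syk, the kinase that binds the TYROBP adaptor, was highest in tumour 1 (8.41) and lowest in tumour 14 (7.81), and Hcst averaged 2.29 ± 0.05. Among complement genes (median 8.54 ± 0.18), 8 of 9 with a mean of at least 5 were highest in tumour 5, among them C3ar1, a complement receptor gene (8.14 ± 0.31), while Cd93 was highest in tumour 1. C3 itself averaged 4.53 ± 0.14.

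Among myeloid transcription factors (median log2 level 8.22 ± 0.16), 7 of 12 were highest in tumour 5. Spi1, which encodes PU.1, had log2 levels of 7.26, 7.78, 7.39, 7.04 and 7.02 in tumours 1, 5, 8, 14 and 15. Irf8, a factor of microglial development, averaged 8.13 ± 0.29 with the same extremes. Sall3, a factor also found in neural cells, was lowest in tumour 5, at 7.59. TGF-beta signalling keeps microglia in the resting state. Of its listed genes (median 9.79 ± 0.15), 3 of 7 were highest in tumour 5 and 4 lowest there, where 24.6% of all genes were lowest. Among the latter was Smad3, at 11.23 in tumour 5 and 11.89 in tumour 1. These bulk levels do not show which cells expressed the genes. Tgfb1 averaged 9.03 ± 0.13 and Tgfbr2 9.79 ± 0.15.

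Genes shared by most myeloid cells were highest in tumour 5 for 13 of 16, with a median log2 level of 8.52 ± 0.27. Laptm5, a lysosomal gene of blood cells, was highest at 10.76 ± 0.37 and Cd52 lowest at 5.98 ± 0.20. Lyz2, the lysozyme gene, averaged 10.11 ± 0.42. In the list of the phagocytic and lipid-handling state (median 9.48 ± 0.19), 8 of 14 genes with a mean of at least 5 were highest in tumour 5. Apoe, a lipid carrier gene that astrocytes also express, averaged 14.58 ± 0.37 and Ctsd, a lysosomal protease gene, 13.53 ± 0.29.

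Cytokine genes of activated macrophages had a median log2 level of 6.87 ± 0.15 and a median SD of 0.39 between tumours, beside 0.32 for the members. Ccl3, a chemokine gene, had log2 levels of 9.45, 10.56, 9.96, 9.46 and 9.24 in tumours 1, 5, 8, 14 and 15, which is 2.50-fold between extremes. Ccl4 spanned 2.21-fold and Tnfaip3, an inhibitor of NF-kappa-B signalling, 2.12-fold. Of 9 listed genes with a mean of at least 5, 8 were highest in tumour 5 and 3 exceeded 2-fold, and Il6 averaged 1.08 ± 0.06. Immediate early genes (median 12.18 ± 0.24), which tissue dissociation also induces, were lowest in tumour 1 for 12 of 12, beside 16.9% of all genes, with a median of 11.76 there and 12.23 to 12.36 in the other tumours. Atf3 was at 9.62 in tumour 1 and 11.09 in tumour 5. Whether these genes moved in the microglia themselves was not tested.

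Several defining genes of other blood cells were low. Ccr2 averaged a log2 level of 3.15 ± 0.16 and Ly6c2, a monocyte gene, 0.57 ± 0.02, near the lowest value in the table, 0.33. The T and natural killer cell list was analysed for 3 of 8 genes (median 2.02 ± 0.08), and Cd3g, a T cell receptor subunit gene, averaged 0.49 ± 0.04, whereas Cd4 averaged 6.20 ± 0.27. Of the neutrophil list (9 of 10 genes analysed, median 3.43 ± 0.12), Camp averaged 1.15 ± 0.07, and only Ltf (9.39 ± 0.56) and the receptor gene Csf3r (7.45 ± 0.37) had a mean of at least 5. In the B cell list (3 of 6 genes analysed, median 4.65 ± 0.08) only Pax5, at 5.39 ± 0.22, did. Monocyte genes had a median of 4.93 ± 0.21, and 5 of 10 had a mean of at least 5, led by Fn1, a matrix gene of many cell types (12.39 ± 0.18).

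Markers of other cell types moved with the members in some libraries. Oligodendrocyte genes (median log2 level 10.87 ± 0.40) were highest in tumour 5 for 8 of 8 with a mean of at least 5 and lowest in tumour 1 for 7 of 8. Their summed level ran between 14.49 in tumour 1 and 15.87 in tumour 5, and Mobp, a myelin gene, spanned 3.67-fold. Endothelial genes (median 9.19 ± 0.36) were highest in tumour 5 for 8 of 10, with summed levels between 12.40 in tumour 14 and 13.14 in tumour 5, led in spread by the transporter gene Slco1a4 (2.82-fold). The members' own summed level ran between 12.40 in tumour 15 and 13.21 in tumour 5. Astrocyte genes (median 11.82 ± 0.24) were highest in tumour 5 for 4 of 7, with summed levels between 14.97 in tumour 1 and 15.41 in tumour 5. The part of these cell types in the members' levels was not tested.

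Genes of granule neuron progenitors and the hedgehog pathway, the cell type that the labels give, were abundant in every library. Their list had a median log2 level of 12.98 ± 0.08, from Zic1 at 15.08 ± 0.05 to Atoh1 at 8.62 ± 0.67. Their summed level lay within 16.75, in tumour 5, and 16.97, in tumour 8. Of the 10 genes, 4 were lowest in tumour 5, beside 24.6% of all genes, and 2 were highest there. Those lowest in tumour 5 were Gli1, Ptch1, Mycn and Mki67, with Ptch1 at 13.92 there and 14.45 to 14.73 elsewhere. A further 4 of the 10 were lowest in tumour 15, beside 22.9% of all genes. Column medians over the whole table lay between 8.51 and 8.58, and since the table holds no counts, the depth of the libraries is unknown.

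**Figure D4:**
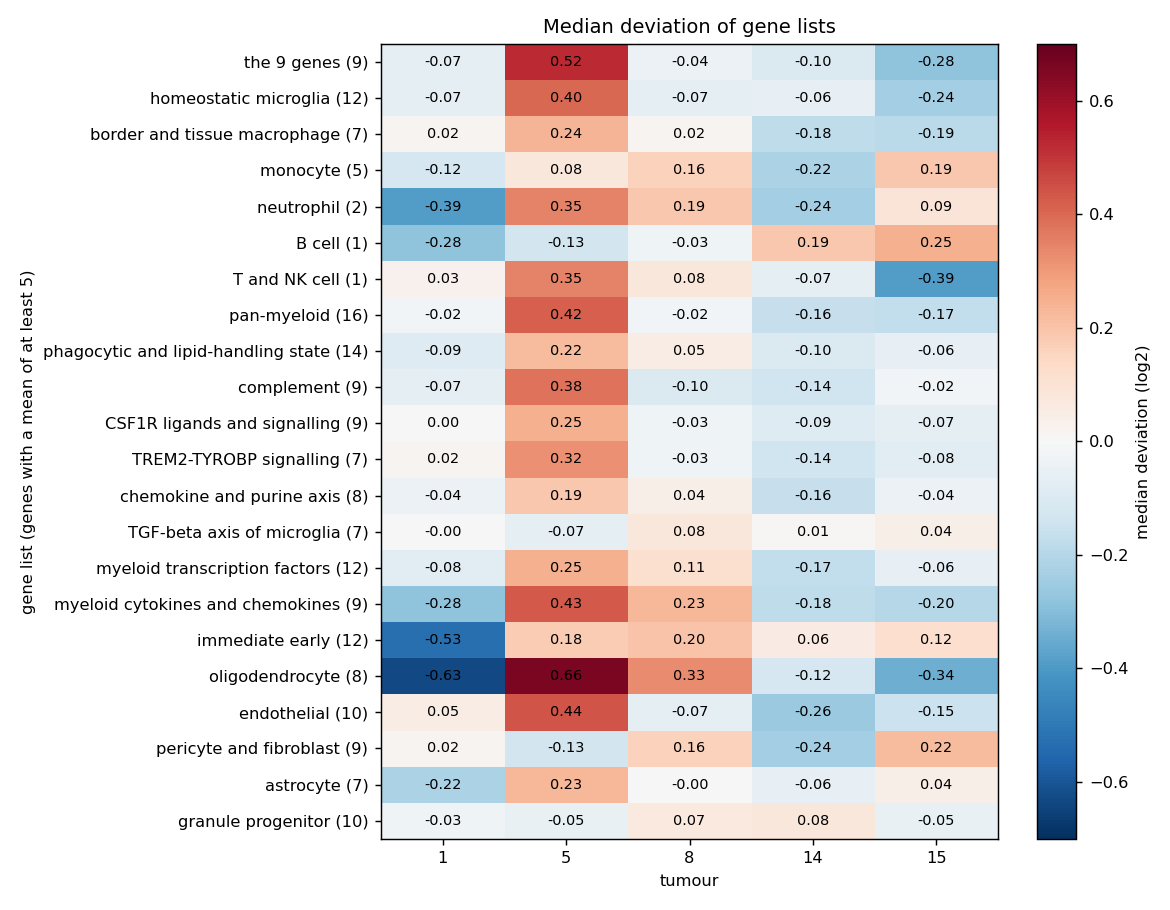
Median over a list's genes of the log2 level minus the gene's own mean (colour and printed value) for the 9 genes and 21 gene lists (rows, with the number of genes with a mean of at least 5) in each tumour (columns). The 9 genes stand at 0.52 in tumour 5 and -0.28 in tumour 15, oligodendrocyte genes at 0.66 and -0.34, and granule progenitor genes at -0.05 in both. In tumours 1, 8 and 14 the 9 genes stand at -0.07, -0.04 and -0.1, and oligodendrocyte genes at -0.63, 0.33 and -0.12.

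Over the whole table, the genes nearest to the members' profile were ranked by the root mean square, over the 5 tumours, of the difference between a gene's deviations and the median deviations of the 9 members. A gene with no variation would score 0.268, and the median of the 13682 other genes with a mean of at least 5 was 0.284. The 10 nearest genes included Ddc (0.0249), Cd300c2 (0.0273), Rasal3 (0.0309), Unc93b1 (0.0343), Inpp5d (0.0349), C1qb (0.0352), Slc37a2 (0.0355), Fmnl1 (0.0365) and Tspan33 (0.0394). Of those named, Inpp5d and C1qb were in a fixed list. Unc93b1 encodes a chaperone of endosomal Toll-like receptors, Cd300c2 a myeloid membrane receptor, and Ddc an enzyme of dopamine and serotonin synthesis. Ddc had log2 levels of 6.28, 6.87, 6.36, 6.23 and 6.10 in tumours 1, 5, 8, 14 and 15.

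The members define the profile, so their own scores are in part fixed by construction and are not set against those of other genes. Among them Csf1r scored 0.0207 and C1qa 0.0229, while Mrc1 scored 0.179 and Tmem119 0.265, close to a gene with no variation. The 5 genes nearest to the mirror image of the profile were Sdk1 (0.0288), a synaptic adhesion gene, Shisa6 (0.0423), Ror2 (0.0526), a WNT receptor gene, Tspan11 (0.0562) and the potassium channel gene Kcns2 (0.0565). Sdk1 had log2 levels of 9.34, 8.72, 9.23, 9.30 and 9.51 in tumours 1, 5, 8, 14 and 15. The ranking rests on few libraries: without tumour 5, 0 of the 10 nearest genes remained among the 10, and without tumour 8 or tumour 15, 3 did.

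**Figure D5:**
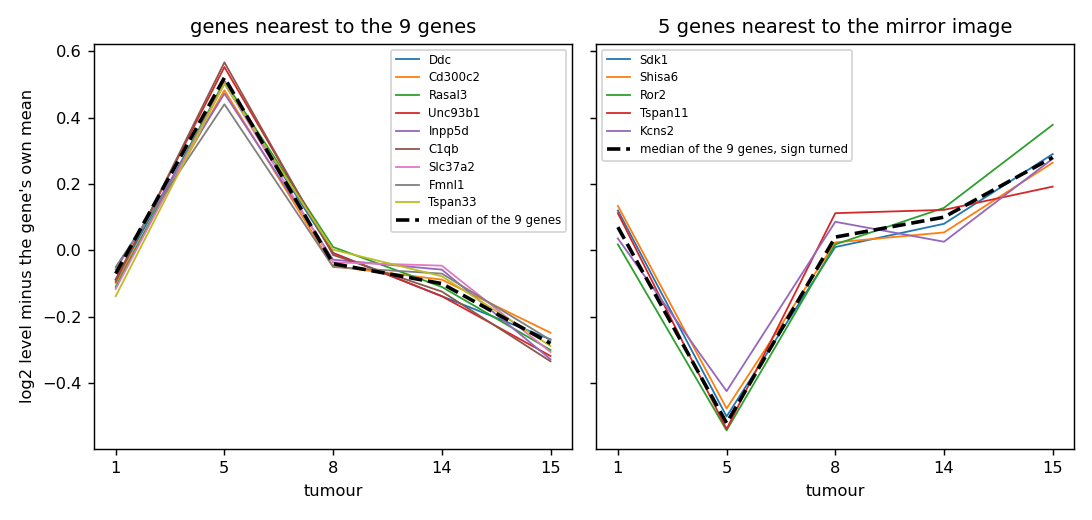
Log2 level minus the gene's own mean (y axis) in each tumour (x axis; lines imply no order) for 9 of the 10 genes nearest to the median profile of the 9 genes (left) and the 5 nearest to its mirror image (right), with that median as a dashed line. The dashed line on the left peaks at 0.52 in tumour 5 and ends at -0.28 in tumour 15.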

How the data were processed

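Gene expression was measured by RNA-seq in 5 libraries of 1 group. The authors deposited 1 table of log2 values by gene symbol. Its short name in the labels, with DESeq2 among the tools in the submitters' processing notes, is why they are taken to be regularised-log values. The notes also list Subread 1.4.6 with featureCounts, STAR 2.4.1, and the builds GRCm38 and mm10. The regularised log adjusts for library size, leaves transcript length in, and pulls low genes towards their mean. The annotation, strandedness of counting and gene filter, and which DESeq2 release was run, were not given in the sources used here. In the table, 2 columns matched no label and were not used. Depth is unknown, so no counting interval is given.

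Exon lengths and positions came from GENCODE M21 on GRCm38 (97.5% of symbols matched 1 gene) and promoters from RefSeq (GRCm38.p6). Genes with a mean of at least 5 formed the background. Differences within tumours were tested by exact sign-flip permutation (two-sided), with Benjamini-Hochberg adjustment within the family. Named in the text are the 9 members, genes of the pairs, the nearest genes, the 5 nearest to the mirror image and, picked with values seen, some of the highest, lowest and most variable genes of the 21 lists and of the pathway genes. From this 2 genes, and a pair among the 10, were left out and are not reported here. The members, lists and pairs were chosen with earlier results of these data known. The steps were tested on simulated data with Python 3.11.15, numpy 2.4.6 and pandas 2.3.3.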

Additional observations from a re-analysis of the deposited data

Results flagged for a closer look

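In 14 of 114 values or list medians examined, 1 tumour stood apart from the other 4 by more than Dixon's critical share of the whole range for 5 samples. Chance gives this for about 1 in 20 independent groups, which is no measure of this share, since many of these values move together and some genes were chosen for following or mirroring a profile that peaks in tumour 5. The number given is the gap to the nearest tumour as a share of the range. In 10 of the 14, tumour 5 was the high one. These were Siglech (0.742), Gpr34 (0.785), C3ar1 (0.748), Cd163 (0.821), Csf3r (0.721) and Cd300c2 (0.720), and the medians of the homeostatic microglia list (0.830), the border and tissue macrophage list (0.748), the pan-myeloid list (0.714) and the list of CSF1R ligands and signalling (0.755). Tspan11 was low in tumour 5 (0.883) and Tgfb1 low in tumour 14 (0.841). Trem2 minus Tyrobp was low in tumour 15 (0.806), and the median of immediate early genes low in tumour 1 (0.793). None of the 9 members met this criterion alone.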

How the results depend on the processing

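The means of all 9 members moved by less than 1 SD when any 1 tumour was left out, which holds for any 5 values. Giving every tumour the same median leaves each gene's mean unchanged by construction. With the same median, 8 members were highest in tumour 5 and 7 lowest in tumour 15, as before. With another tumour left out these counts were 8 to 9 and 7 to 8. Such an omission cannot lower them, so it is no test of the pattern. The count of members over 2-fold ran from 0 to 1. Without length subtraction Tyrobp minus Csf1r was -2.42, Tmem119 minus Trem2 -1.02 and C1qa minus C1qc -0.40. With the longest transcript Mrc1 minus Aif1 was -0.52 and C1qa minus C1qc -0.18. With principal transcripts, chosen after seeing the data, Tmem119 minus Trem2 was -2.06, Mrc1 minus Aif1 -0.52 and C1qa minus C1qc -0.18. These turns follow from the lengths used. With a tumour left out, Tmem119 minus Trem2 ran from -0.0849 to 0.201 and Mrc1 minus Aif1 from -0.0011 to 0.16. The smallest p with 4 tumours is 0.125. Of the 10 nearest genes, 0 to 6 were kept with a tumour left out and 5 with the mean deviation of the members, and the cause was not tested. By list mean in place of median, levels were 8.63 for homeostatic microglia, 5.41 for border macrophages, 6.14 for monocytes, 4.04 for neutrophils, 4.39 for B cells, 2.90 for T and NK cells, 8.01 for complement, 6.47 for TREM2-TYROBP signalling, 7.22 for the chemokine and purine axis, 6.36 for myeloid cytokines, 10.20 for oligodendrocytes and 12.83 for granule progenitors. Over genes with a mean of at least 5, fewer genes by construction, medians were 5.63 for border macrophages, 9.59 for monocytes, 8.42 for neutrophils, 5.39 for B cells, 6.20 for T and NK cells, 9.96 for the phagocytic state, 8.88 for complement, 8.47 for CSF1R ligands and signalling and 7.65 for myeloid cytokines. No paired analysis was possible because there is 1 group, with no other to pair by replicate number; the differences within tumours compare genes.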
